A study of Mus musculus with 20 samples.

Results

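The genes described here are 8 genes of natural killer (NK) cells, followed by symbol in bulk RNA of mouse ovarian tumours under 6 treatments. They are Ncr1, Klrb1c, Klrk1, Klrd1, Klre1, Klrg1, Fasl and Txk, and all 8 of 55406 genes in the count table were found, tested and followed. The tumours grew from a luciferase-expressing derivative of ID8, a cancer line from the ovarian surface epithelium of the mouse. Per the genotype label, this derivative lacks the tumour suppressor Trp53 and Brca1, which repairs DNA breaks by homologous recombination. The cells were injected into the peritoneal cavity of C57/BL6 female mice, and every group, controls included, carried them. Whether the line is 1 clone, and the age of the mice, were not given in the sources used here.

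The groups were the full combination of PARPi, ICB and anti-VEGFA (n = 4), PARPi+anti-VEGFA (n = 4), PARPi+ICB (n = 3), PARPi (n = 3), ICB (n = 3) and untreated control (n = 3). PARPi was olaparib, which blocks the DNA repair enzyme PARP and was given by mouth at 40 mg/kg per day. ICB was immune checkpoint blockade with 100 µg anti-CTLA-4 and 200 µg anti-PD-L1, and anti-VEGFA was 20 µg of an antibody against the angiogenic factor VEGFA, with antibodies injected 2 times a week. No group received anti-VEGFA without PARPi. Each library is titled as a mouse, so replicates are read as animals.

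NK cells are innate lymphocytes that kill stressed or transformed cells without prior sensitisation, and they do so on the balance of activating and inhibitory surface receptors. Many of these receptors are C-type lectins whose genes are clustered in the NK gene complex on mouse chromosome 6. Several are not confined to NK cells: activated CD8 T cells carry the products of Klrk1, Klrd1, Klrg1 and Fasl as well, and Txk is used by T cells. In ovarian cancer, NK cells and CD8 T cells are both found in ascites and in solid tumour.

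By role, the set holds activating receptors, lectins with inhibitory or mixed function, a death ligand and a kinase. Ncr1 encodes NKp46, the activating receptor most used to identify NK cells, and Klrb1c encodes NK1.1, the activating lectin that marks NK cells in C57BL/6 mice. Klrk1 encodes NKG2D, an activating receptor for stress-induced ligands. Klrd1 encodes CD94, the partner chain of the NKG2 receptors that read the nonclassical class I molecule Qa-1. Klre1 encodes a lectin that forms receptors with the products of Klri1 and Klri2, and Klrg1 an inhibitory receptor for cadherins. Fasl, which encodes Fas ligand, and Txk, which encodes a kinase of the Tec family, are not receptors, so the name of NK cell receptors covers 6 of the 8 genes.

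On GRCm38, 5 of the genes lie on chromosome 6. Klrb1c spans 128778485 to 128789215, Klre1 129577905 to 129585827, Klrd1 129591782 to 129598775, Klrk1 129610323 to 129623864 and Klrg1 122270596 to 122282882. Klre1, Klrd1 and Klrk1 together occupy 46.0 kb. Ncr1 lies on chromosome 7 (4337724 to 4345164), Txk on chromosome 5 (72695978 to 72752777) and Fasl on chromosome 1 (161780689 to 161788495). Exons of Klrb1c share 413 bases, 13.9% of their length, with Gm44511 on the same strand, so reads there may be split or lost. Txk spans a pseudogene on the opposite strand, Gm43717, with no shared exon base.

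The promoter windows of the 4 genes below are shown because each of these genes was called higher in tumours under PARPi+anti-VEGFA and under the full combination, and each window holds the same 6-letter motif. The sequences are RefSeq windows of 300 bases on GRCm38.p6, written 5′ to 3′ on the strand of the gene, and capitals mark TGTGGT or its reverse complement ACCACA, the core bound by RUNX factors.
Ncr1 (chr7:4337474-4337773, plus strand): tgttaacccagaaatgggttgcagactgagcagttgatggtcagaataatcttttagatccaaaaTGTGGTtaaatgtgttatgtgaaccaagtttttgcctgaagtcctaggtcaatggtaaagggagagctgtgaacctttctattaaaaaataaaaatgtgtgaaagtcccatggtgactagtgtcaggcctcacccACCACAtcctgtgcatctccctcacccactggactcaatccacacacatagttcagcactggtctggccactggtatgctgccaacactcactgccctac
Klrb1c (chr6:128788592-128788891, minus strand): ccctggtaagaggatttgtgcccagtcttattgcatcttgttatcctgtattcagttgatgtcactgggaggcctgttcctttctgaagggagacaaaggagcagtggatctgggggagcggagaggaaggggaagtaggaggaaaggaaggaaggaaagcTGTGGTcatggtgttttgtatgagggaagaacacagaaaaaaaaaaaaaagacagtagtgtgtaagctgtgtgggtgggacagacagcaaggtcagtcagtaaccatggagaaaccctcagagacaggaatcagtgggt
Klrk1 (chr6:129623815-129624114, minus strand): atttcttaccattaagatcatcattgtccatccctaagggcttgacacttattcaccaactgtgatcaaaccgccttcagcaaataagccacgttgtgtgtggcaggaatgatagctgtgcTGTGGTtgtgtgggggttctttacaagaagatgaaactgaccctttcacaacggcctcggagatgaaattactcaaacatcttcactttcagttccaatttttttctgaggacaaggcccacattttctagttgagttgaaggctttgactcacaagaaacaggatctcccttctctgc
Klre1 (chr6:129577963-129578262, plus strand): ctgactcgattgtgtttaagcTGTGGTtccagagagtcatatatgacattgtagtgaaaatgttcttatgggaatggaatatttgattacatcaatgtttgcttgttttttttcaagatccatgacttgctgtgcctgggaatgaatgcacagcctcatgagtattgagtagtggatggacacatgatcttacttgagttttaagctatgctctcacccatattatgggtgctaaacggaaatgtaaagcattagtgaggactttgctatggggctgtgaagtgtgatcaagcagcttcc

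Windows were available for 6 of the 8 genes, all but Klrd1 and Klrg1. TGTGGT, searched on both strands, was in 4 of the 6 windows, against 16.8% of the 32851 windows of all genes. Ncr1 held 2 matches, beginning 185 and 50 bases before the RefSeq start (positions -185 and -50), and Klrb1c, Klrk1 and Klre1 held 1 each, at -89, -129 and -229. The windows of Klrb1c and Klre1 lie wholly inside the GENCODE gene spans given above. Their positions therefore count from a RefSeq start within that span and are not upstream of the GENCODE gene start. The windows of Fasl and Txk held none. Of the other motifs searched on both strands, the ETS letters GGAAGT were in 3 of 6 windows (Klrb1c, Fasl and Txk) against 23.8% of all, the NFAT letters GGAAAA in 1 of 6 (Fasl) against 23.4%, the T-box letters TCACACC in 0 of 6 against 3.98% and the STAT5 letters TTCNNNGAA in 0 of 6 against 8.3%. The ETS and NFAT letters share GGAA, and none of the matches listed overlapped another. TGTGGT was in the most windows among the motifs searched, and the printed windows were chosen for the calls and for holding it. A link between these letters and the calls was not tested. The matches describe letters in a short window and not binding.

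The 20 libraries held 26.9 to 34.7 M counts. Levels are given as CPM, read counts scaled by effective (TMM) library size, and changes as log2 fold changes ± SE from edgeR's quasi-likelihood test over 18144 genes, with p-values adjusted by the Benjamini-Hochberg method. Calls were made below an adjusted p of 0.05. Markers of ID8-type epithelium were present in every library, with Wt1 at 795 to 1070, Krt8 at 267 to 381 and Msln at 203 to 405 CPM, while Epcam was low at 1.65 to 6.5 CPM. Summed with Krt7, Krt18 and Krt19, these markers had 2170 to 2560 CPM in controls and 2080 to 2260 under ICB. They had 1850 to 2090 CPM in the full combination, 1780 to 2000 under PARPi+anti-VEGFA, 1830 to 2060 under PARPi+ICB and 2050 to 2090 under PARPi. Whether this lower marker level bears on the receptor changes was not tested. The NK markers Ncr1, Klrb1c and Klre1 were read in all 20 libraries, with at least 7, 8 and 17 counts. In bulk tissue, fewer NK cells and less receptor RNA per cell cannot be told apart.

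Before any comparison, 3 features of the libraries bear on what follows. Exocrine pancreas genes averaged above 2 log2 CPM in 4 libraries (full combination replicate 2, PARPi+anti-VEGFA replicates 1 and 4, ICB replicate 3). The RNAs Rn7sk, Lars2 and Mir6236, taken here as a readout of library quality, averaged 4.47 to 4.82 log2 CPM in controls and were lower in all treated libraries but 1. The 7 erythroid genes in the table summed to 41.1 to 133 CPM in controls and to 5.29 to 91.6 CPM in treated libraries.

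The genes were of low to moderate level. Per kb of exon, Klrd1 stood highest, with a median of 2.85 CPM per kb over the 20 libraries and a range of 1.11 to 5.24. Klrk1 followed at a median of 0.794 CPM per kb, then Fasl at 0.579, Ncr1 at 0.466, Klre1 at 0.402, Txk at 0.376, Klrg1 at 0.235 and Klrb1c at 0.147. In counts, Klrk1 had 77 to 266 per library and Klrg1 had 6 to 26, so the low genes carry more counting error. All 8 passed the filter on low counts.

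Ncr1, the NKp46 gene, had 1.2, 0.606, 2.1 and 0.828 CPM in the full combination and 0.972, 1.0, 1.6 and 0.756 CPM under PARPi+anti-VEGFA. It had 0.582, 0.68 and 0.794 CPM under PARPi+ICB, 0.921, 0.385 and 0.795 CPM under PARPi, 0.283, 0.232 and 0.462 CPM under ICB, and 0.472, 0.269 and 0.265 CPM in controls. Every library of the 3 combinations lay above the highest control, whereas ICB tumours overlapped controls and 1 of 3 PARPi libraries lay within the control range. Ncr1 varied most of the 8, with the highest library 9.05 times the lowest, and its control counts were 8 to 15.

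Klrb1c, the NK1.1 gene, had 0.974, 0.428, 0.712 and 0.517 CPM in the full combination, 0.648, 0.412, 0.802 and 0.831 CPM under PARPi+anti-VEGFA and 0.756, 0.402 and 0.728 CPM under PARPi+ICB. It had 0.288, 0.482 and 0.445 CPM under PARPi, 0.283, 0.299 and 0.369 CPM under ICB, and 0.252, 0.369 and 0.265 CPM in controls. The 3 combinations again stood above all controls, with their lowest libraries just above the highest control.

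Klrk1, the NKG2D gene, had 7.85, 4.96, 6.96 and 7.04 CPM in the full combination and 5.48, 7.1, 9.3 and 9.11 CPM under PARPi+anti-VEGFA. It had 7.74, 4.48 and 5.92 CPM under PARPi+ICB, 6.3, 6.62 and 4.1 CPM under PARPi, 4.5, 3.75 and 4.37 CPM under ICB, and 3.24, 4.47 and 2.55 CPM in controls. PARPi+anti-VEGFA held the highest mean, 7.75 ± 1.81 CPM against 3.42 ± 0.972 CPM in controls (SD, n = 4 and 3), and 1 PARPi+ICB library cleared the highest control only narrowly.

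Klrd1, the CD94 gene, had 6.72, 4.53, 5.34 and 3.9 CPM in the full combination and 4.36, 3.42, 6.2 and 5.93 CPM under PARPi+anti-VEGFA. It had 4.27, 3.09 and 4.93 CPM under PARPi+ICB, 3.6, 2.92 and 3.4 CPM under PARPi, 2.33, 3.29 and 3.69 CPM under ICB, and 1.89, 3.02 and 1.42 CPM in controls. Its group mean was highest in the full combination, followed by PARPi+anti-VEGFA, PARPi+ICB, PARPi, ICB and control, and each neighbouring pair in that order overlapped.

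Klre1 had 2.34, 1.89, 2.3 and 1.83 CPM in the full combination, 1.41, 1.62, 3.5 and 2.23 CPM under PARPi+anti-VEGFA and 1.4, 1.33 and 1.79 CPM under PARPi+ICB. It had 0.95, 0.899 and 0.89 CPM under PARPi, 0.66, 1.13 and 1.54 CPM under ICB, and 1.26, 1.04 and 0.562 CPM in controls. PARPi tumours lay inside the control range, and the full combination lay above both PARPi+ICB and controls without overlap. Between the full combination and PARPi+ICB, 1.91% of all genes tested showed such a gap upward.

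The other 3 genes did not separate from controls in this way. Klrg1, the cadherin receptor gene, ranged over 0.276 to 0.518 CPM in the full combination, 0.324 to 0.693 under PARPi+anti-VEGFA, 0.185 to 0.86 under PARPi+ICB and 0.231 to 0.504 in controls. Fasl had 1.95, 1.5, 1.2 and 1.45 CPM in the full combination, all above the 1.07, 0.672 and 0.496 CPM of controls, but overlapped controls in every other group. Txk, the kinase gene, was highest under ICB at 5.13 ± 0.529 CPM (SD, n = 3) and lowest under PARPi at 3.42 ± 0.873 CPM (n = 3), with controls between them at 4.55 ± 0.489 CPM (n = 3). Over all 8 genes, 2 of the pairs of groups next to each other in mean level did not overlap, namely Klre1 in the full combination over PARPi+ICB and Ncr1 under PARPi+ICB over controls.

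**Figure D1:**
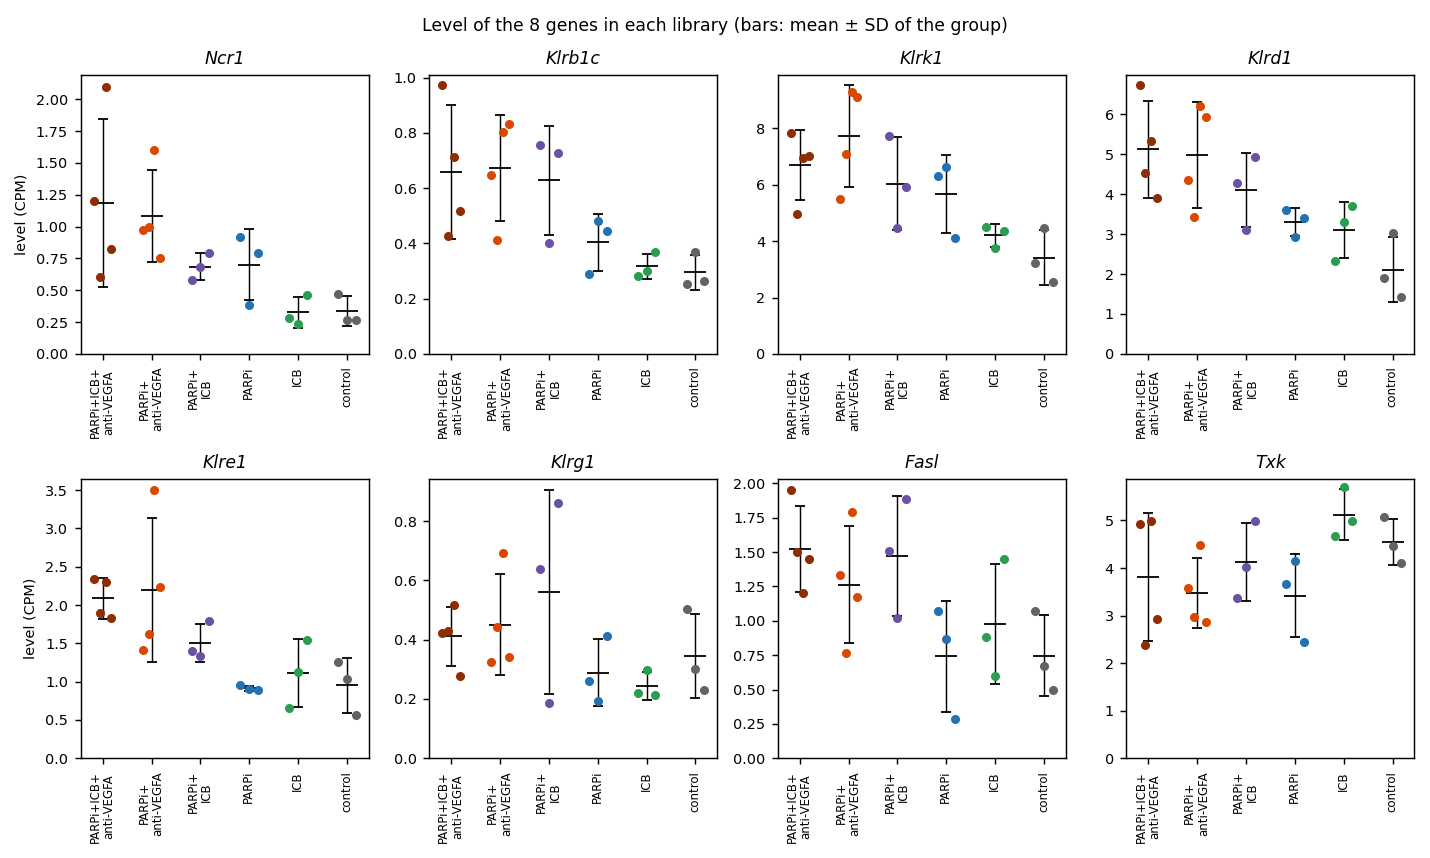
Level of each gene in CPM (vertical axis, linear from 0) in every library, 1 point per library, with the group mean and SD as bars, for the full combination, PARPi+anti-VEGFA, PARPi+ICB, PARPi, ICB and control from left to right. Ncr1, Klrb1c, Klrk1, Klrd1 and Klre1 lie above all controls in the full combination, PARPi+anti-VEGFA and PARPi+ICB, and Txk does not.

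A test for any difference among the 6 groups called 5 of the 8 genes, against 20.7% of all genes tested. These were Ncr1 (edgeR adjusted p = 0.0132), Klrb1c (0.046), Klrk1 (0.015), Klrd1 (0.0167) and Klre1 (0.0168). For Klrg1, Fasl and Txk the edgeR adjusted p was 0.362, 0.178 and 0.349.

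In the full combination against control, 5 of the 8 genes rose, where 12.6% of all genes tested were called higher and 24.2% in either direction. Ncr1 rose by 1.81 ± 0.44 on the log2 scale, 3.5-fold (edgeR adjusted p = 0.00694). Klrd1 rose by 1.28 ± 0.27 (edgeR adjusted p = 0.00312), Klrb1c by 1.15 ± 0.36 (0.0289), Klre1 by 1.13 ± 0.33 (0.0188) and Klrk1 by 0.97 ± 0.24 (0.0083). The folds were 2.43 for Klrd1, 2.22 for Klrb1c, 2.18 for Klre1 and 1.96 for Klrk1. The libraries of these 5 genes and of Fasl did not overlap with controls, a gap upward that 14.9% of all genes tested showed. Fasl was not called by edgeR, at 1.02 ± 0.41 (adjusted p = 0.0782), but passed with DESeq2 (0.0432) and with limma on the deposited values (0.0466), 2 of 15 alternative fits, over which its adjusted p ran from 0.0432 to 0.241. Klrg1 stood at 0.24 ± 0.46 and Txk at -0.25 ± 0.24. The median log2 change of the 8 genes was 1.07, beside -0.02 over all genes tested. Of the 5 calls, 3 were left without control replicate 3 (Ncr1, Klrk1 and Klrd1), and 3 with the quality RNAs as a covariate.

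Under PARPi+anti-VEGFA against control, 5 of the 8 rose, where 9.99% of all genes tested were called higher and 17.8% in either direction. Ncr1 rose by 1.67 ± 0.44 on the log2 scale (edgeR adjusted p = 0.0147), Klrd1 by 1.23 ± 0.27 (0.00551), Klre1 by 1.19 ± 0.33 (0.0186), Klrk1 by 1.18 ± 0.24 (0.00358) and Klrb1c by 1.17 ± 0.36 (0.0335). The 3 control libraries are those of the comparison above. All 4 libraries lay above all 3 controls for each of the 5, a gap upward that 14.2% of all genes tested showed. Fasl stood at 0.75 ± 0.41, Klrg1 at 0.36 ± 0.45 and Txk at -0.39 ± 0.24, and the median of the 8 was 1.17. Of the 5 calls, 2 were left without control replicate 3 (Klrk1 and Klrd1), 3 without PARPi+anti-VEGFA replicate 3 and 3 in a fit of the compared groups alone. With the quality RNAs as a covariate all 5 calls were lost (edgeR adjusted p = 0.188 for Klrk1 to 0.723 for Klrb1c), a measure that cannot be told apart from this treatment.

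Under PARPi+ICB against control, Klrd1 rose by 0.96 ± 0.29 on the log2 scale (edgeR adjusted p = 0.0306) and Klrk1 by 0.82 ± 0.26 (0.0359). The other 6 genes were not called, so that 2 of 8 stood beside 9.58% of all genes called higher and 16.1% called in either direction. Klrb1c stood at 1.08 ± 0.38 (edgeR adjusted p = 0.0623), Ncr1 at 1.01 ± 0.47 (0.157) and Klre1 at 0.65 ± 0.35 (0.22), each with all 3 libraries above all 3 controls, a gap upward that 17.5% of all genes tested showed. Fasl stood at 0.97 ± 0.43 and Klrg1 at 0.68 ± 0.47, and Txk at -0.14 ± 0.26. Both calls were lost without control replicate 1 or 3, without PARPi+ICB replicate 1 or 3, with the replicate block, in the compared groups alone, with limma and with the quality covariate.

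PARPi alone gave no call among the 8 genes by edgeR or DESeq2, where edgeR called 0.0661% of all genes tested. At an unadjusted p under 0.05, 3 of the 8 were higher by edgeR, beside 11.4% of all genes in either direction. Klrk1 stood at 0.73 ± 0.26, Ncr1 at 1.05 ± 0.47 and Klrd1 at 0.65 ± 0.29. ICB alone also gave 0 of 8 by edgeR and by DESeq2, where edgeR called 2.2% of all genes tested, and 0 of 8 at an unadjusted p under 0.05, against 17.6% of all genes. The smallest p under ICB was that of Klrd1, at 0.56 ± 0.29 (edgeR adjusted p = 0.332), and Ncr1 stood at -0.04 ± 0.50.

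**Figure D2:**
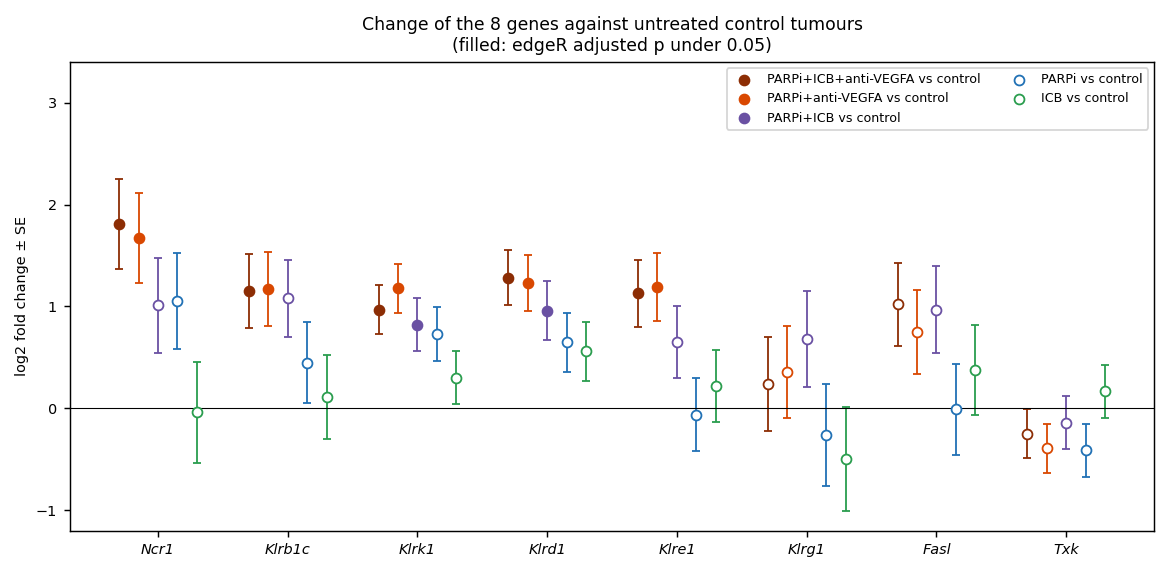
Log2 fold change ± SE (vertical axis) of each gene against the 3 control tumours for the 5 treatments, from left to right the full combination, PARPi+anti-VEGFA, PARPi+ICB, PARPi and ICB, with filled points for an edgeR adjusted p under 0.05. The 12 filled points belong to Ncr1, Klrb1c, Klrk1, Klrd1 and Klre1, and Txk stands at -0.41 to 0.17.

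Comparisons among treated groups asked what each agent added. Adding anti-VEGFA to PARPi gave positive changes for 8 of 8 genes with a median log2 change of 0.62, but edgeR called 0 of 8, where 0.573% of all genes tested were called, and 2 of 8 passed an unadjusted p under 0.05 (15.5% of all genes). Klre1, the lectin with the largest of these changes, was at 2.19 ± 0.939 CPM under PARPi+anti-VEGFA and 0.913 ± 0.0322 CPM under PARPi (SD, n = 4 and 3), without overlap (a gap upward in 7.51% of all genes tested), a log2 difference of 1.25 ± 0.33 (edgeR adjusted p = 0.0861). DESeq2 called Klre1 in this comparison, and edgeR called it without PARPi+anti-VEGFA replicate 1. Klrd1 differed by 0.58 ± 0.26 and Ncr1 by 0.62 ± 0.40.

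Adding ICB to PARPi gave 0 of 8 calls by edgeR and by DESeq2 (1.26% of all genes tested by edgeR), 1 of 8 at an unadjusted p under 0.05 (16.3% of all genes) and a median of 0.47. That gene was Fasl, with 1.47 ± 0.434 CPM under PARPi+ICB and 0.74 ± 0.405 CPM under PARPi (SD, n = 3 each), a log2 difference of 0.98 ± 0.43 (edgeR adjusted p = 0.261). Ncr1 and Klrk1 stood at -0.04 ± 0.44 and 0.09 ± 0.25.

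The full combination gave 0 of 8 calls by edgeR and by DESeq2, and 0 of 8 at an unadjusted p under 0.05, against PARPi+ICB and against PARPi+anti-VEGFA, where edgeR called 0% and 0.0882% of all genes tested and 4.11% and 12.5% passed the unadjusted p. Against PARPi+ICB, Ncr1 stood at 0.79 ± 0.41 and Klre1 at 0.48 ± 0.31. Against PARPi+anti-VEGFA, Ncr1 stood at 0.14 ± 0.36, Klrd1 at 0.05 ± 0.24, Klre1 at -0.06 ± 0.29 and Klrk1 at -0.21 ± 0.22, and the median of the 8 was 0.01. Whether the effect of ICB differed with PARPi, or that of anti-VEGFA with ICB, was tested by interaction terms, and edgeR and DESeq2 called 0 of 8 in each, with 0 of 8 at an unadjusted p under 0.05 (5.21% and 6.55% of all genes). A p above the threshold does not show equal levels at n = 3 or 4.

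The genes tended to vary together across the 20 libraries, with the exception of Txk. Spearman's rho of log2 CPM was 0.89 for Klrd1 with Klre1, neighbours on chromosome 6, 0.85 for Klrd1 with Klrb1c and 0.81 for Klrk1 with Klrb1c. Txk had rho between -0.28 and 0.08 with the other 7 genes. With group means removed, Pearson's r was 0.74 for Klrd1 with Klre1 and with Klrb1c, and 0.11 for Ncr1 with Klrk1. Txk then had r between 0.21 (with Klrg1) and 0.53 (with Ncr1) with the other 7 genes. Within groups, Txk was therefore no exception. These values describe 20 libraries that share groups and depth and carry no test.

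For each gene the 3 genes most like it by Spearman's rho over the 20 libraries were looked up among 12931 or 12932 named genes of at least 1 CPM. Klrd1 was most like Cd8a, a CD8 T cell coreceptor gene (0.96), Entpd1, the ectonucleotidase CD39 (0.95), and Sla, a Src-like adaptor (0.94). Klre1 was most like Skap2, a Src-kinase adaptor (0.96), Gzma, granzyme A (0.94), and Lcp2, the adaptor SLP-76 (0.92). Klrk1 was most like Tfec, Vcam1 and Trim30d (0.85 to 0.86), and Klrb1c like Haus3, Trps1 and Rab8b (0.91 each). Ncr1 was most like Efemp1, Abi3bp and Atp10a (0.87 to 0.88), Fasl like Clec2g, Grb10 and Abhd11os (0.86 to 0.87), Klrg1 like Pdia4, Slc16a9 and Snx5 (0.79 to 0.84) and Txk like Las1l, Rhox8 and Sirt3 (0.83 to 0.84).

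Other NK receptors were followed as a list of 28 symbols, of which 22 were tested. Against control, 12 rose and 1 fell in the full combination, 16 rose under PARPi+anti-VEGFA, 8 rose under PARPi+ICB and 0 were called under PARPi or ICB by edgeR, with 8 and 5 at an unadjusted p under 0.05. The median log2 change was 1.2, 1.38, 1.04, 0.68 and 0.34 in that order, beside -0.02 to 0 over all genes tested. Of all genes tested, edgeR called 12.6% higher in the full combination, 9.99% under PARPi+anti-VEGFA and 9.58% under PARPi+ICB. It called 0.0661% under PARPi and 2.2% under ICB in either direction, with 11.4% and 17.6% at an unadjusted p under 0.05. These shares apply to the lists below as well. Cd96, a receptor for nectin-like ligands on NK and T cells, rose by 1.37 ± 0.20 in the full combination, by 1.18 ± 0.20 under PARPi+anti-VEGFA and by 1.26 ± 0.21 under PARPi+ICB. Klrc2, the NKG2C partner of Klrd1, rose by 2.62 ± 0.50 in the full combination, with 17 to 27 counts per library against 3 to 4 in controls. Klri1, a partner of Klre1, rose by 1.71 ± 0.35 under PARPi+anti-VEGFA, to 1.52 ± 0.45 CPM against 0.461 ± 0.145 CPM in controls. The gene that fell, named after its value was seen, was Klrb1a, a paralog of Klrb1c, with 0.461 ± 0.054 CPM in the full combination and 0.977 ± 0.236 CPM in controls. Genes of this list, the Ly49 (Klra) family above all, have near-identical copies among which reads may be split, so single values are uncertain.

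Signalling partners rose with the receptors. Of 13 tested adaptors and kinases, 10 rose in the full combination, 9 under PARPi+anti-VEGFA and 9 under PARPi+ICB, and 0 were called under PARPi or ICB by edgeR, with 6 and 8 at an unadjusted p under 0.05. Zap70 and Syk, the kinases that act on phosphorylated receptor motifs, rose by 1.68 ± 0.21 and 1.28 ± 0.16 in the full combination, and Lck, a kinase best known from T cells, by 1.51 ± 0.18. Hcst, the DAP10 adaptor of NKG2D, which is outside the rule for named genes, had 2.14 ± 0.781 CPM in the full combination, 1.41 ± 0.303 CPM under PARPi+anti-VEGFA, 2.13 ± 0.574 CPM under PARPi+ICB and 0.642 ± 0.155 CPM in controls (SD).

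Of 15 NK transcription factors and cytokine receptors, 8 rose and 1 fell in the full combination, 6 rose under PARPi+anti-VEGFA and 6 under PARPi+ICB. Under PARPi and ICB edgeR called 0, with 6 and 5 at an unadjusted p under 0.05. Eomes, a T-box factor of NK and memory CD8 T cells, rose by 2.04 ± 0.27 in the full combination, by 1.4 ± 0.27 under PARPi+anti-VEGFA and by 1.9 ± 0.28 under PARPi+ICB. Il2rb, the receptor chain through which interleukin 15 acts, rose by 1.22 ± 0.18, 1.09 ± 0.18 and 1.15 ± 0.18, and Runx3 by 0.65 ± 0.12, 0.71 ± 0.12 and 0.61 ± 0.13, in the same order of groups. The gene that fell, named after its value was seen, was Nfil3, a factor of early NK development, which fell by 0.35 on the log2 scale in the full combination.

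Of 13 cytotoxic effectors, 9 rose in the full combination, 8 under PARPi+anti-VEGFA and 7 under PARPi+ICB, and 0 were called under PARPi or ICB by edgeR, with 4 and 9 at an unadjusted p under 0.05. Gzma stood at 2.28 ± 0.58 CPM in the full combination, 2.13 ± 0.543 CPM under PARPi+anti-VEGFA and 0.456 ± 0.119 CPM in controls (SD, n = 4, 4 and 3). It rose by 2.31 ± 0.40 and 2.21 ± 0.40. Ccl5, a chemokine made by activated NK and T cells, rose by 1.69 ± 0.27, 1.39 ± 0.27 and 1.35 ± 0.28 in the full combination, PARPi+anti-VEGFA and PARPi+ICB.

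T cell genes moved in the same comparisons. All 14 tested T cell genes rose in the full combination, under PARPi+anti-VEGFA and under PARPi+ICB, 4 of 14 rose under ICB and 0 were called under PARPi by edgeR, with 9 at an unadjusted p under 0.05. Summed over the 14 genes, none at 0 in any library, they reached 229 to 331 CPM in the full combination, 176 to 238 under PARPi+anti-VEGFA, 193 to 282 under PARPi+ICB, 141 to 165 under PARPi, 155 to 185 under ICB and 102 to 121 in controls. Cd8b1, a CD8 chain, rose by 1.47 ± 0.24 under PARPi+anti-VEGFA, and Cd3d, of the T cell receptor complex, by 1.75 ± 0.22 in the full combination. Spearman's rho with the mean of the T cell genes over 20 libraries was 0.90 for Klrd1, 0.85 for Klre1, 0.80 for Fasl, 0.77 for Klrb1c, 0.65 for Klrk1, 0.59 for Ncr1, 0.53 for Klrg1 and 0 for Txk. The part of T cells in the receptor changes was not tested.

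Genes of other innate lymphocytes, namely innate lymphoid, gamma delta and NKT cells, were tested for 8 of 9 symbols. Against control, 7 rose in the full combination, 4 rose under PARPi+anti-VEGFA, 4 rose under PARPi+ICB, 1 rose under ICB and 0 were called under PARPi by edgeR, with 2 at an unadjusted p under 0.05. Zbtb16, the PLZF factor of NKT and innate lymphoid cells, rose by 2.37 ± 0.45 in the full combination, and Il1rl1, the interleukin 33 receptor, by 2.04 ± 0.30.

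**Figure D3:**
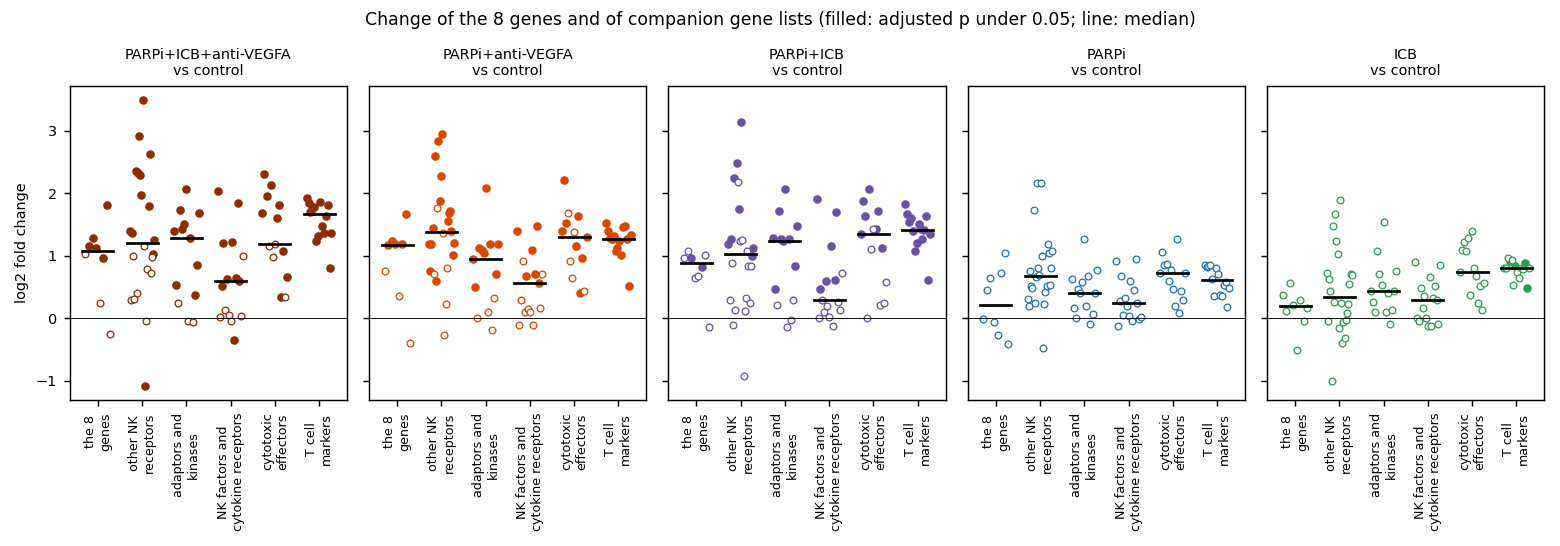
Log2 fold change (vertical axis) of each of the 8 genes and of the tested genes of 5 lists (other NK receptors, adaptors and kinases, NK factors and cytokine receptors, cytotoxic effectors and T cell markers) against control, 1 panel per treatment, with filled points for an edgeR adjusted p under 0.05 and a line at the median of each list. Filled points are present in each plotted list under the 3 combinations, are absent under PARPi, and under ICB number 4, all among the T cell markers.

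Ligands of the receptors behaved unevenly. Of 13 listed, 9 were tested. H2-T23, which encodes Qa-1, the ligand of CD94 with NKG2 chains, had 232, 193, 223 and 201 CPM in the full combination, 170, 175, 218 and 190 CPM under PARPi+anti-VEGFA and 187, 184 and 226 CPM under PARPi+ICB. It had 172, 170 and 133 CPM under PARPi, 185, 175 and 174 CPM under ICB and 132, 129 and 123 CPM in controls, so that every treated library lay above every control. H2-T23 rose by 0.73 ± 0.10, 0.56 ± 0.10 and 0.64 ± 0.11 in the 3 combinations and by 0.47 ± 0.11 under ICB (edgeR adjusted p = 0.0272), and stood at 0.31 ± 0.11 under PARPi (0.259).

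Cdh1, which encodes E-cadherin, a ligand of the Klrg1 receptor, had 9.12, 6.56, 7.73 and 8.97 CPM in the full combination against 5.16, 3.73 and 2.88 CPM in controls. It rose by 1.04 ± 0.18 there, by 0.86 ± 0.17 under PARPi+anti-VEGFA and by 0.86 ± 0.18 under PARPi+ICB. Clec2d, ligand of an inhibitory receptor related to NK1.1, rose by 0.72 ± 0.16, 0.56 ± 0.16 and 0.59 ± 0.17, and Fas, the receptor of Fas ligand, by 0.72 ± 0.19, 0.78 ± 0.19 and 0.64 ± 0.20, in the full combination, PARPi+anti-VEGFA and PARPi+ICB. Fas had 13.2, 11.5 and 12.7 CPM under PARPi+ICB against 7.62, 7.83 and 8.5 CPM in controls. None of the tested NKG2D ligand genes was called higher. Raet1d, Ulbp1 and H60b were called in no comparison with control, with Ulbp1 at 31.9 ± 5.61 CPM in the full combination and 37.1 ± 3.86 CPM in controls. Raet1e fell by 0.45 on the log2 scale under PARPi+ICB, to 10.3 ± 0.623 CPM against 14.1 ± 0.757 CPM in controls, the 1 ligand called lower. Cdh2, the N-cadherin gene, stood at -0.45 to -0.08 against control and was not called.

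**Figure D4:**
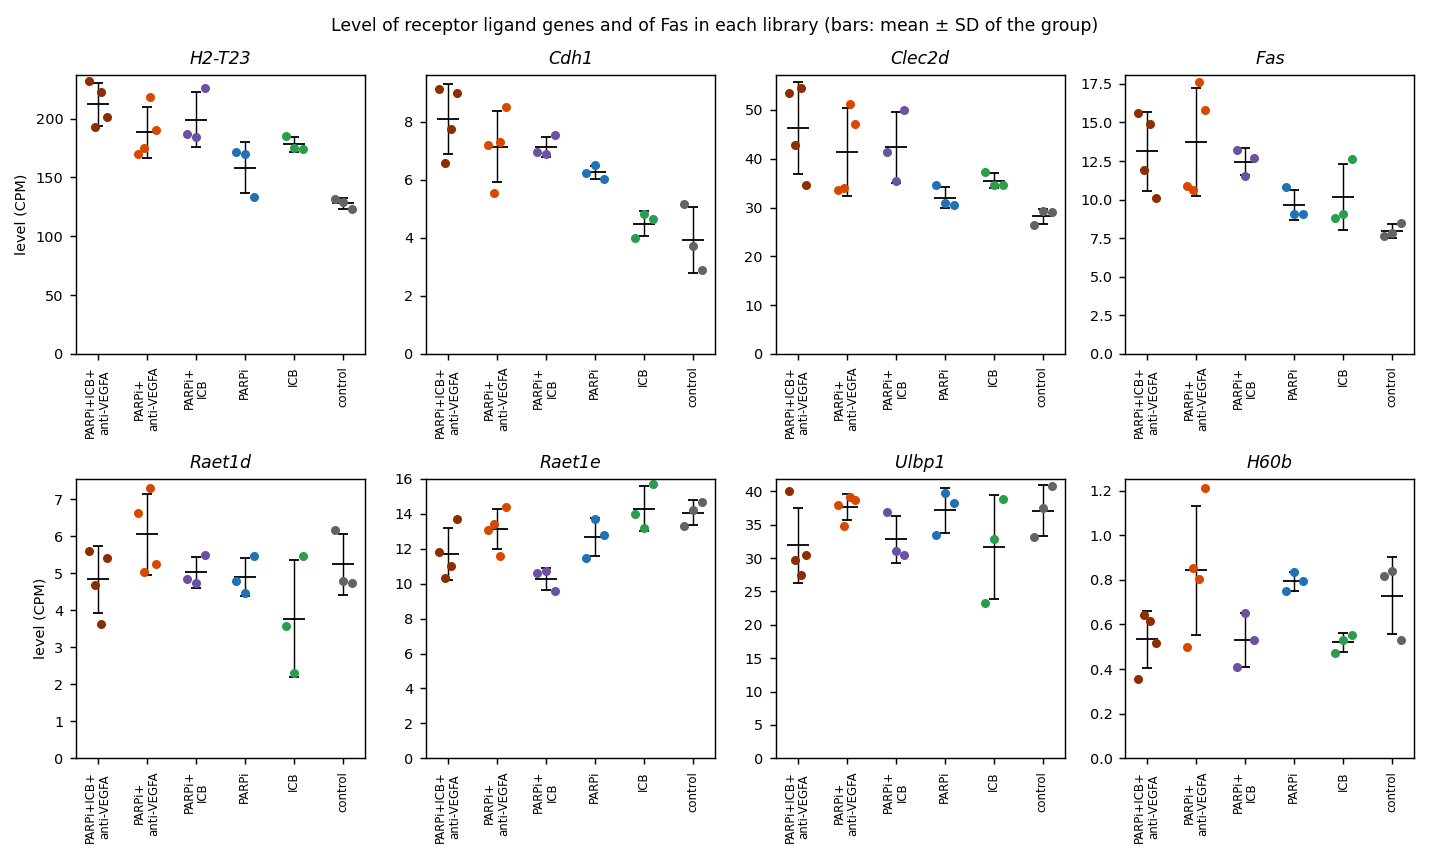
Level in CPM (vertical axis, linear from 0) of 8 ligand and partner genes in every library, 1 point per library, with group mean and SD, for the full combination, PARPi+anti-VEGFA, PARPi+ICB, PARPi, ICB and control from left to right. H2-T23 lies above all controls in every treated group, and the NKG2D ligands Raet1d, Ulbp1 and H60b overlap controls in the full combination.

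Library quality RNAs moved with treatment as well. Rn7sk, Lars2 and Mir6236, none at 0 in any library, summed to 55.5 to 153 CPM in the full combination, 46.5 to 62.3 under PARPi+anti-VEGFA, 61.6 to 82 under PARPi+ICB, 67.1 to 127 under PARPi, 60.6 to 79.7 under ICB and 150 to 154 in controls. Under PARPi+anti-VEGFA their mean log2 CPM was 2.72 to 2.81 and that of controls 4.47 to 4.82, so this measure and that treatment cannot be told apart. With the measure as a covariate, a fit added after the data were seen, edgeR called 0 of the 8 genes under PARPi+anti-VEGFA and PARPi+ICB, and 3 in the full combination: Ncr1 at 1.65 ± 0.53, Klrk1 at 1.07 ± 0.30 and Klrd1 at 1.01 ± 0.32 (edgeR adjusted p = 0.0463, 0.0254 and 0.0469). Over the 15 alternative fits of this comparison, the adjusted p ran from 0.00106 to 0.0463 for Ncr1, 0.000404 to 0.0453 for Klrk1 and 2.63e-05 to 0.0469 for Klrd1 (edgeR, DESeq2 or limma). Over all genes tested the same fit called 0 under PARPi+anti-VEGFA. Replicate 4 of the full combination had a quality mean of 4.63, within the control range, and its 0.828 CPM of Ncr1, 0.517 CPM of Klrb1c, 7.04 CPM of Klrk1, 3.9 CPM of Klrd1 and 1.83 CPM of Klre1 were each above every control. ICB tumours had quality means of 2.74 to 3.08, and 0 of the 8 genes was called there. These are values of a few libraries, and library quality as a cause of the receptor changes was not tested.

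**Figure D5:**
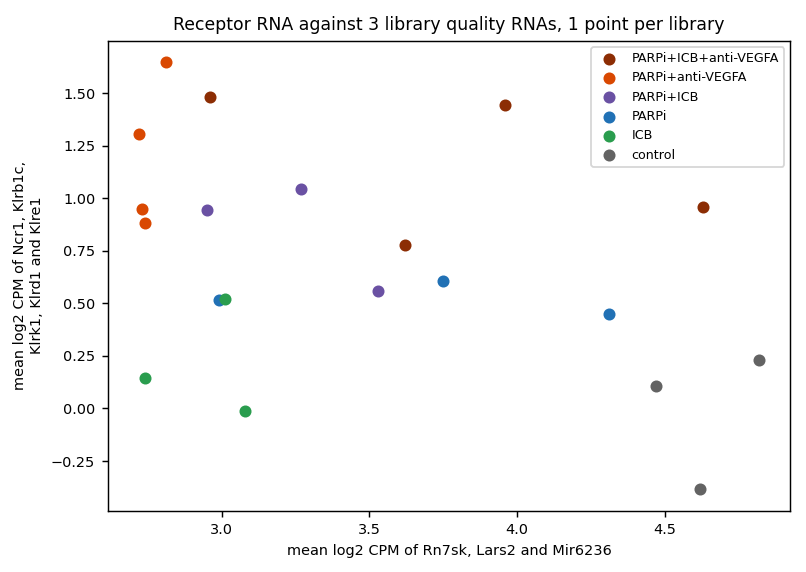
Mean log2 CPM of Ncr1, Klrb1c, Klrk1, Klrd1 and Klre1 (vertical axis) against that of the library quality RNAs Rn7sk, Lars2 and Mir6236 (horizontal axis), 1 point per library, coloured by group. The full combination spreads from 2.96 to 4.63 on the horizontal axis and stays at 0.78 or higher on the vertical axis, ICB lies at 2.74 to 3.08 and at most 0.52, and controls at 4.47 to 4.82 and at most 0.23.

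Leaving out the 4 libraries with exocrine pancreas RNA, also added after the data were seen, left all 5 calls of the full combination and 4 of the 5 under PARPi+anti-VEGFA, losing Klrb1c. Control replicate 3 had the lowest Klrk1, Klrd1 and Klre1 of the 20 libraries. Without it, Ncr1, Klrk1 and Klrd1 were called in the full combination, and Klrk1 and Klrd1 under PARPi+anti-VEGFA. Without PARPi+anti-VEGFA replicate 3, which had the highest Klrk1 and Klre1 of all libraries, Ncr1, Klrk1 and Klrd1 were called in that group.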

How the data were processed

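Total RNA from frozen tumour was made into stranded whole-transcriptome libraries, per the labels' protocols. STAR, HTSeq and GRCm38 are named in the submitters' processing notes, without versions, and the strand setting is not given in the sources used here. The deposited table of whole-number read counts per Ensembl gene was used for all tests. A second deposited table, named as RPKM, holds log2 values of RPKM with 1 added. For 99.7% of 12365 genes of at least 50 counts, its values matched the counts to within 5% with gene length taken as genomic span, so levels between genes were compared here as CPM per kb of exon from the counts (GENCODE M21).

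Genes were filtered with filterByExpr (minimum count 10, minimum total 15). edgeR 4.0.16 in R 4.3.3 fitted 1 coefficient for each of 6 groups over all 20 libraries, with TMM scaling (factors 0.958 to 1.03) and no covariate. The common biological coefficient of variation was 0.208. SE is the log2 change over the root of F. Alternatives used the size factors of DESeq2, no filter, DESeq2 1.42.0, a replicate block, the compared groups alone, limma 3.58.1 on the deposited log2 values, and each library left out. edgeR, DESeq2 and limma were tried on simulated counts with known changes, for PARPi+anti-VEGFA against control only. The interaction terms, the test for any difference among groups and the other alternative fits were not tried in this way.

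The genes and lists were chosen with earlier results of these data known. Named genes are the 8, the ligands, up to 4 genes of smallest p per list and contrast, and the 3 most alike by Spearman's rho. Exceptions are marked, and the single values of some genes in the lists are not reported here. Promoters came from RefSeq, with the window nearest the GENCODE gene start where 2 were listed. Means are given with SD over animals, and counts limit precision for genes of few reads.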

Additional observations from a re-analysis of the deposited data

How the results depend on the processing

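Against control, the number of the 8 genes called in the full combination was 5, and 3 with the quality covariate. Leaving out 1 library each gave 3 to 5, the lowest without control replicate 3. Under PARPi+anti-VEGFA it was 5, but 3 with the compared groups alone and 0 with the quality covariate, and 2 to 5 without single libraries. Under PARPi+ICB it was 2, but 0 with the replicate block, the compared groups alone, limma on the deposited values or the quality covariate, and 0 to 3 without single libraries. For any difference among groups it was 5, but 3 with the replicate block, 3 with limma and 2 with the quality covariate, and 3 to 5 without single libraries (3 without control replicate 1). For PARPi+anti-VEGFA against PARPi it was 0, but 1 with DESeq2, and 0 to 1 without single libraries. In the full combination, Ncr1, Klrk1 and Klrd1 were called in 15 of 15 alternative fits, Klre1 in 13, Klrb1c in 7 and Fasl in 2. Under PARPi+anti-VEGFA the calls were 12, 14, 14, 11 and 6 of 15 for the genes in that order, and under PARPi+ICB 6 of 14 each for Klrk1 and Klrd1. The causes were not tested, and some fits also held fewer libraries. The other 7 comparisons gave 0 under every alternative run. Libraries of the same replicate number did not deviate together (mean r -0.005, 0.009 and 0.022 for numbers 1 to 3, and -0.002 for other pairs), so the replicate block pairs only a number. Over all genes, DESeq2 called 345 under PARPi against 12 by edgeR, 1031 under ICB against 400, 782 for PARPi+ICB against PARPi where edgeR called 229, and 649 for PARPi+anti-VEGFA against PARPi where edgeR called 104. With the quality covariate edgeR called 2471 genes in the full combination against 4384, 0 under PARPi+anti-VEGFA against 3228 and 630 under PARPi+ICB against 2922.

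Log2 changes that turned sign all belonged to genes that were not called. Without single libraries, the values under PARPi ran from -0.37 to 0.37 for Fasl, -0.33 to 0.2 for Klre1 and -0.6 to 0.12 for Klrg1. Under ICB they ran from -0.38 to 0.29 for Ncr1, -0.1 to 0.48 for Klre1, -0.02 to 0.29 for Klrb1c and -0.02 to 0.74 for Fasl. Fasl under PARPi turned to 0 without the filter, 0.01 with the replicate block and 0.05 with the quality covariate. Without the libraries holding pancreas RNA, Klrb1c, Klre1 and Fasl turned to -0.02, -0.1 and -0.02 under ICB. With the quality covariate Klrb1c turned to -0.42 under ICB, and Klrg1 to -0.29, -0.82 and -0.21 in the full combination, PARPi+anti-VEGFA and PARPi+ICB. Depth limits Klrg1, Klrb1c and Ncr1 most, with as few as 6, 8 and 7 counts in a library.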

Other observations

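The stretch of chromosome 6 from Klrb1c through the last Klra gene (GRCm38, 128778485 to 131247362) was chosen after values were seen, and its counts are given as a description. Of 31 tested protein-coding genes there, edgeR called 17 higher and 0 lower in the full combination against control, 20 higher and 1 lower under PARPi+anti-VEGFA, and 9 higher and 1 lower under PARPi+ICB. Under PARPi and under ICB it called 0. Of all genes tested, 12.6% were called higher in the full combination, 9.99% under PARPi+anti-VEGFA and 9.58% under PARPi+ICB. The gene called lower in both groups was Gabarapl1, an autophagy gene between the lectins, at -0.25 under PARPi+anti-VEGFA and -0.26 under PARPi+ICB. The median log2 change over the 31 genes was 0.91 in the full combination, 1.17 under PARPi+anti-VEGFA, 0.71 under PARPi+ICB, 0.49 under PARPi and 0.25 under ICB. The stretch holds 4 of the 8 genes and many of the other NK receptors, so these counts repeat part of what is given above.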
